A study of Homo sapiens with 4 samples.

Results

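Gene expression of unstressed wild-type Nalm-6 cells was described from the 1 array, of 4 in the series, that carries the wild-type label. Nalm-6 is an established human pre-B leukemia cell line. The study compared it with derivatives in which the INO80 subunits Arp5 or Arp8 were disrupted by homologous recombination, or in which Arp8 was expressed from a tetracycline-regulated construct, and the design names no stress treatment for these arrays. The wild-type cells carried none of these changes and grew in RPMI medium with 10% fetal bovine serum. Total RNA was labeled with Cy3 and hybridized to a one-color Agilent array. A single array of a single culture gives no replicate check, so values and counts are reported with no p-value, and the number of arrays limits their precision. The other 3 genotypes were not compared here.

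Pre-B cells have joined the gene segments of the immunoglobulin heavy chain but not yet those of a light chain. In place of a light chain they use a surrogate made of the VPREB1 and IGLL1 proteins, which pairs with the heavy chain, and the signaling partners CD79A and CD79B carry the signal of this pre-B-cell receptor into the cell. Transcription factors such as EBF1, PAX5 and the E2A protein encoded by TCF3 set up this program, and RAG1, RAG2 and the DNA polymerase DNTT carry out and diversify the joining of gene segments.

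After outlier spots were left out, 40652 probes had a value, and 29062 of them (71.5%) were well above background by the mark of the scanner software. Processed signals ran from 1.55 to 350480 units, with a median of 132 and a 75th percentile of 1754 units, and no spot was saturated. The 149 negative control spots had a mean of 1.80 units (SD 0.205), and 0 of them were called. The lowest called probe had 7.76 units and the brightest probe not called had 11.7, so the call changes over a narrow range of dim signals. The accession of the probe gave a gene name for 26005 probes and 17632 genes, each represented by its brightest probe. At least 1 probe was well above background for 13407 of these genes (76%), and 10757 genes (61%) reached 100 units. Of 668 genes placed in lists by role, 655 had a named probe. The shares over all named genes are the background for each gene list, together with a median percentile of 63.1 for all named genes, where a percentile is the share of the 40652 probes that were dimmer.

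**Figure D1:**
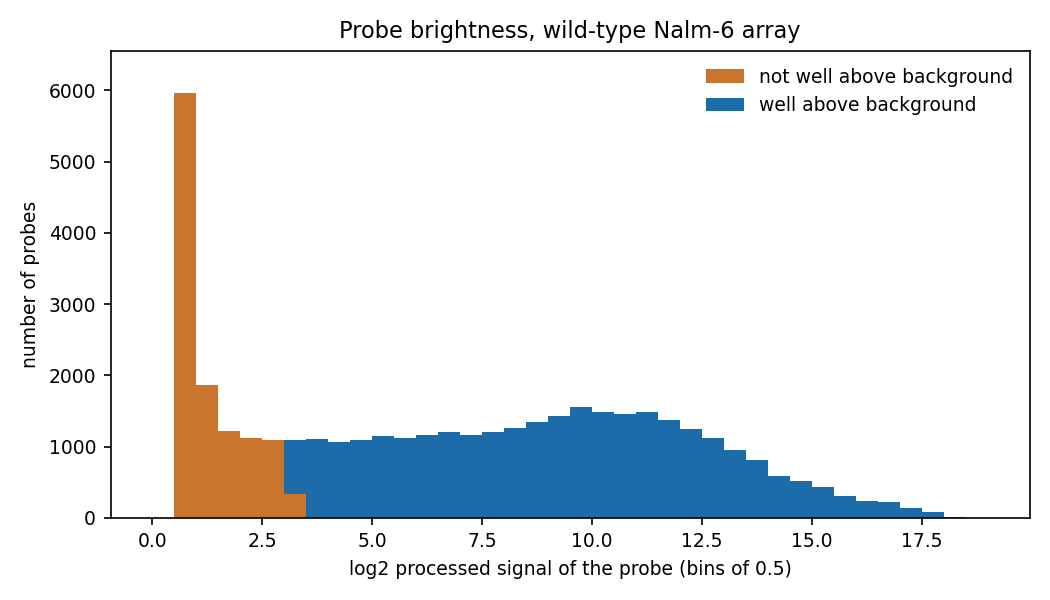
Number of probes (vertical axis) by log2 processed signal in bins of 0.5 (horizontal axis) on the wild-type array, with probes not well above background in orange and probes well above background stacked on them in blue. The tall orange bar holds 5960 probes near the level of the negative controls, and the blue part extends up to the brightest probe at 350480 units.

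Signal also depends on the probe itself, so a rank is one of brightness and not of mRNA amount, and no gene is set above another. Among 4711 genes with several probes that were all well above background, the brightest and the dimmest probe differed by a median of 4.49-fold, and by 35.4-fold at the 90th percentile. For 731 of 5442 genes with several probes and at least 1 of them called (13.4%), other probes of the same gene were not. Of the list genes BCL2A1, a survival factor of the BCL2 family, had the widest log2 range (11.75), with probes at 5972 and 1.73 units. SYN1, a synaptic vesicle protein, came next with 16126 and 7.86 units. CEBPA, a myeloid factor, had probes at 9071, 11.3 and 9.84 units. The myelin gene MBP had 6672 and 8.71 units, and POU2F1, which encodes the octamer-binding factor Oct-1, had 5033 and 8.62 units. For ALAS2, CCND1, CD86, CXCR5, GSTM3, HOXB3, HOXB7, HOXB13 and VWF, all under 100 units, the signal given below comes from the only called probe of 2 or 3. Outlier marks removed a probe of 7 list genes, and the calls of 3 of them, CCR3, CD1A and PRKCB, turned on it. Repeated spots of 1 probe varied far less. Their SD of log2 signal had a median of 0.05 in 151 probes of 500 units or more, 0.08 from 50 to 500 units, 0.24 from 10 to 50 units and 0.41 in 61 probes under 10 units.

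Genes of protein synthesis dominated the brightest probes. Of the 20 named genes with the highest signal, 16 encode proteins of the cytosolic ribosome, led by RPS28 at 344225, RPS6 at 335191, RPS2 at 311604, RPLP0 at 310960 and RPL13 at 308238 units. RPS27, RPL19, RPL23A, RPS25, RPL3, RPL41, RPSA, RPL38 and RPL7A had between 302060 and 240540 units. The other 4 were TCL1A, a coactivator of the kinase AKT in early lymphocytes, at 303723 units, the mitochondrial protein gene CHCHD2 at 255376 units, the ribosomal pseudogene RPS2P32 at 246994 units and OAZ1, an inhibitor of polyamine synthesis, at 244242 units. RPS2P32 derives from RPS2, and the signals of the 2 genes cannot be told apart here. All 82 measured genes of cytosolic ribosomal proteins were called, with a median percentile of 99.8. All 75 mitochondrial ribosomal proteins were called too, with a median percentile of 93.1 and with MRPS34 (65372 units), MRPL51 (56342 units) and MRPS12 (52284 units) the brightest. Subunits of the proteasome, which degrades tagged proteins, were called in 37 of 38 cases, led by PSMA6 at 171704, PSMB1 at 121222 and PSMB6 at 63051 units.

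**Figure D2:**
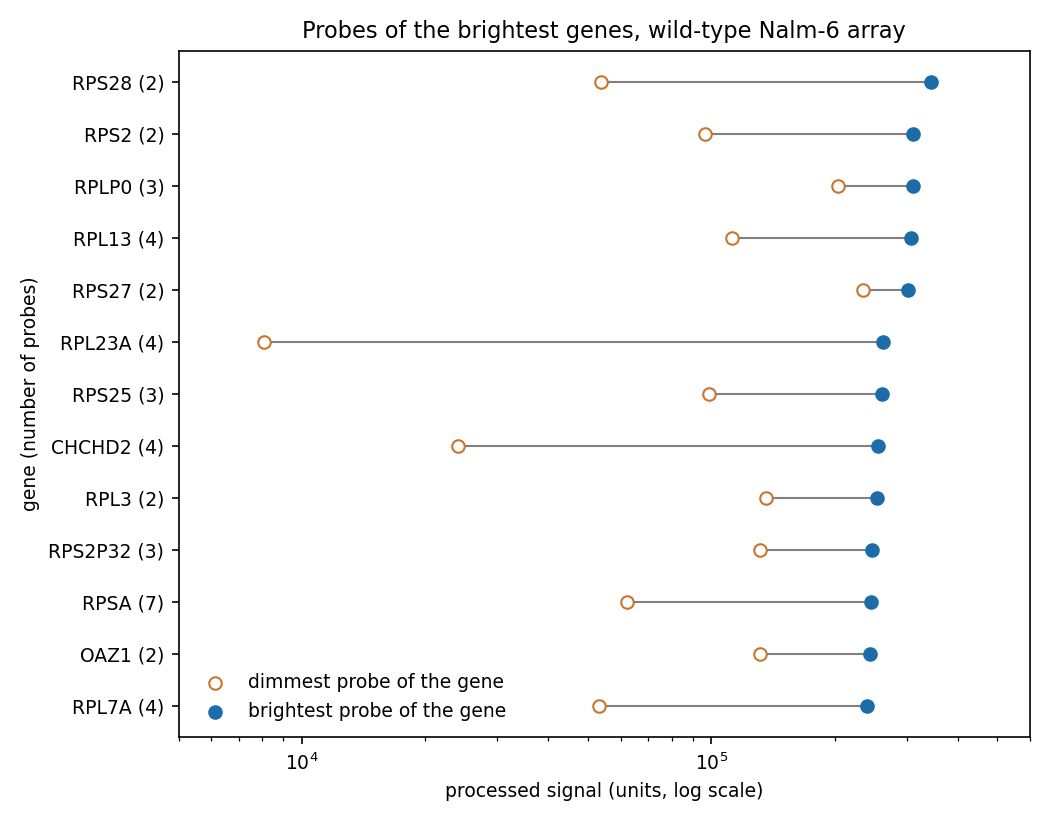
Processed signal in units (horizontal log axis) of the 13 genes with several probes among the 20 named genes with the highest signal (vertical axis, number of probes in parentheses) on the wild-type array. Filled points are the brightest probe and open points the dimmest probe of the same gene; RPL23A spans 8069 to 262130 units.

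The pre-B label of the line was checked against its markers. CD79A had 18833 units and VPREB1 had 37374 units, at percentiles 94.4 and 97.0, and both were well above background. All 17 pre-B markers with a named probe were called and reached 100 units, with a median percentile of 94.4. The surrogate light chain gene IGLL1 had 129232 units, and VPREB3, whose protein associates with the heavy chain during assembly, had 10010 units. CD79B, the signaling partner of CD79A, had 12501 units. Among surface proteins the tetraspanin CD9 had 26905 units and the peptidase MME, known as CD10, 23848 units. The inhibitory receptor CD22 (1821 units), CD72 (2042 units) and the ectoenzyme CD38 (2201 units) were at percentiles between 75.4 and 77.3. PAX5, the factor that commits cells to the B lineage, had 261 units from its only probe, the dimmest value of this list. CD24 had no named probe.

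For 4 genes of the pre-B-cell receptor and its assembly, all of them called, the 250 bases before the start of the gene are shown. They are RefSeq sequences of build GRCh38.p14, written 5′ to 3′ on the strand of the gene, and capitals mark the E-box letters CAGGTG or, on the other strand, CACCTG, which the E2A protein can bind. CD79A lies on the plus strand at chr19:41877029-41877278 and VPREB1 on the plus strand at chr22:22244536-22244785. IGLL1 lies on the minus strand at chr22:23580291-23580540 and VPREB3 on the minus strand at chr22:23754426-23754675.
CD79A: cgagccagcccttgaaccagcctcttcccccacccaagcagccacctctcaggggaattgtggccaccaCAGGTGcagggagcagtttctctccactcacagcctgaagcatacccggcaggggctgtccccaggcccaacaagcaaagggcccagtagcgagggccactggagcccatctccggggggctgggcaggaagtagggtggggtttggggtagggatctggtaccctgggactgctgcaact
VPREB1: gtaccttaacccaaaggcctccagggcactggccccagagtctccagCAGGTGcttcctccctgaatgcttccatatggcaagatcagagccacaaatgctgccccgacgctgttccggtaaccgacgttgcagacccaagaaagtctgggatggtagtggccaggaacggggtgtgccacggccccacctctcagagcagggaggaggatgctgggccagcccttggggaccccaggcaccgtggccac
IGLL1: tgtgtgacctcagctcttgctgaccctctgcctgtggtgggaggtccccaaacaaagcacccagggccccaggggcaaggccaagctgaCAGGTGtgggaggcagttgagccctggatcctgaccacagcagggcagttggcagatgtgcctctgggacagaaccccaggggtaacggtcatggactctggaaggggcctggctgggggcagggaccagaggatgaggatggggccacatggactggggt
VPREB3: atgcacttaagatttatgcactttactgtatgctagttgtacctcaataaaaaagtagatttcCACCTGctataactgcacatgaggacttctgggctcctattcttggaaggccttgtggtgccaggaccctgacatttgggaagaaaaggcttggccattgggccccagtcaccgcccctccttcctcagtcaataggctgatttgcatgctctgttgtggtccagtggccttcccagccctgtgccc

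Each of the 4 windows held the E-box letters once. The promoter table matched 16 of the 18 pre-B markers, taking the most upstream start of a gene, and CAGGTG was found on either strand in 7 of them (43.8%): CD79A, VPREB1, VPREB3, IGLL1, DNTT, CD38 and BLNK. Over all 27303 promoters of the same length the share was 17.5%. Searched in the same way, CCAAT was in 8 of 16 against 33.0% of all promoters, GGGCGG in 5 against 42.2%, TATAAA in 1 against 11.2%, and the EBF1-type letters TCCC and GGGA with 2 bases between them in 0 against 1.08%. A match of letters is a description of the sequence and does not show binding.

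Lists of other blood cells and tissues had lower shares of called genes than the pre-B list, and median percentiles of 51.6 or less. Plasma cell and myeloid markers (77.8% each) and T cell markers (73.7%) were near the 76% of all named genes. Their counts of called genes therefore do not set them apart from genes at large. Shares in the other lists ran from 38.9% to 68.4%. Of 12 measured markers of mature and germinal center B cells 8 were called, but 1 reached 100 units, the BAFF receptor TNFRSF13C at 656 units. The costimulatory ligand CD86 (97.6 units), CD27 (42.5 units) and the follicle-homing receptor CXCR5 (17.4 units) were called at low signal. MS4A1, which encodes CD20, had 12.6 units. The low-affinity IgE receptor FCER2, FCRL4 and FCRL1 were not well above background, at 2.78 to 6.71 units.

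Some genes often used to mark plasma cells were bright. XBP1, a factor of secretory cells and of the unfolded protein response, had 145259 units, MZB1, a chaperone of the endoplasmic reticulum, 24947 units, SDC1, known as CD138, 11604 units and IRF4 7276 units. The second probes of XBP1, SDC1 and IRF4 were dimmer, at 12938, 140 and 387 units. PRDM1, the factor that drives plasma cell formation, had 44.2 units, and the joining chain of secreted antibodies, JCHAIN, had 134 units. CD28 and SLAMF7 were not well above background. In all 7 of 9 plasma cell markers were called and 6 reached 100 units.

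T cell markers were called in 14 of 19 cases and reached 100 units in 9. The kinase ZAP70 (5472 units), CD4 (5261 units) and the adaptor LAT (1742 units) were the brightest, and PTCRA, a chain of the pre-T-cell receptor, had 965 units. The chains CD3E and CD247 had 44.9 and 19.6 units, CD3G 5.11 and CD3D 1.80 units. CD3G, CD3D, CD1A, CD8B and TRAT1 were not well above background. NK and cytotoxic genes were called in 5 of 11 cases: the granzymes GZMA (4230 units) and GZMB (52.8 units), NKG7 (325 units), TYROBP (48.3 units) and perforin, PRF1 (10.4 units). NCAM1, KLRB1, KLRF1, GNLY, FCGR3A and KLRD1 were not.

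Of 18 myeloid markers 14 were called and 6 reached 100 units. They were CEBPA, with the disagreement of its probes given above, CD33 (587 units), the Fc receptor chain FCER1G (526 units), CEBPE (388 units), CD68 (162 units) and CD14 (119 units). The granule enzymes MPO (8.45 units) and ELANE (6.91 units) and the calcium-binding proteins S100A8 (2.47 units) and S100A9 (1.67 units) were not well above background. Erythroid and megakaryocyte markers were called in 13 of 19 cases, but 2 reached 100 units, the platelet glycoprotein GP9 at 468 units and the erythropoietin receptor EPOR at 460 units. GATA1, the globins HBB and HBG1, the glycophorin GYPB and PPBP were not called. Other globins were called under 100 units: HBA1 (91.1 units), HBD (44.6 units), HBA2 (25.8 units) and HBE1 (17.0 units). Second probes of HBD and HBE1 were not called, at 1.67 and 1.81 units. Among 14 stem and progenitor markers 8 were called, led by sialophorin, SPN (5082 units), LMO2 (2972 units), THY1 (2514 units) and KIT (1838 units). CD34 had 40.6 units and FLT3 16.2 units, and PROM1, CRHBP, MECOM, HLF, MEIS1 and HOXA9 were not called.

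Markers of solid tissues were mostly not called. In the stromal, endothelial and epithelial list 7 of 15 were, with the growth factor receptor PDGFRA at 24747 units, KRT8 at 941 and KRT18 at 297 units. The second probe of KRT8 was not called, at 2.46 units. VWF (37.9 units), DCN (11.0 units), KRT19 (10.9 units) and CDH5 (9.10 units) were called at low signal. COL3A1, COL1A2, KDR, KRT5, EPCAM, CDH1, LUM and PECAM1 were not called, at 3.68 units or less. Of 18 liver, muscle and nerve markers 7 were called, among them SYN1 and MBP, whose second probes were not, GFAP at 348 units, with 2 further probes at 1.99 and 1.62 units that were not, and MYOD1 at 302 units. Albumin, ALB, had 3.51 units, and SNAP25 had 1.72 units. Foreign gene families show how far the call reaches: 44 of 109 olfactory receptors (40.4%), 10 of 24 taste receptors, 4 of 13 beta-defensins and 36 of 85 keratins and keratin-associated proteins were called. At 100 units or more the counts were 8 olfactory receptors, 0 taste receptors, 0 beta-defensins and 15 keratin genes. The brightest olfactory receptors were OR2H1 (1907 units), OR7E24 (844 units) and OR4D2 (741 units), the brightest taste receptors TAS2R31 (63.1 units), TAS2R10 (61.0 units) and TAS2R14 (50.05 units), the brightest defensins DEFB4A (48.1 units), DEFB1 (16.5 units) and DEFB129 (10.9 units), and the brightest keratin genes KRT10 (29973 units), KRTAP1-3 (15176 units) and KRTAP5-8 (9109 units). OR2H1 and KRTAP1-3 each had a second probe that was not called, at 2.12 and 1.96 units. A call under 100 units is read here only as a signal above the array's background.

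**Figure D3:**
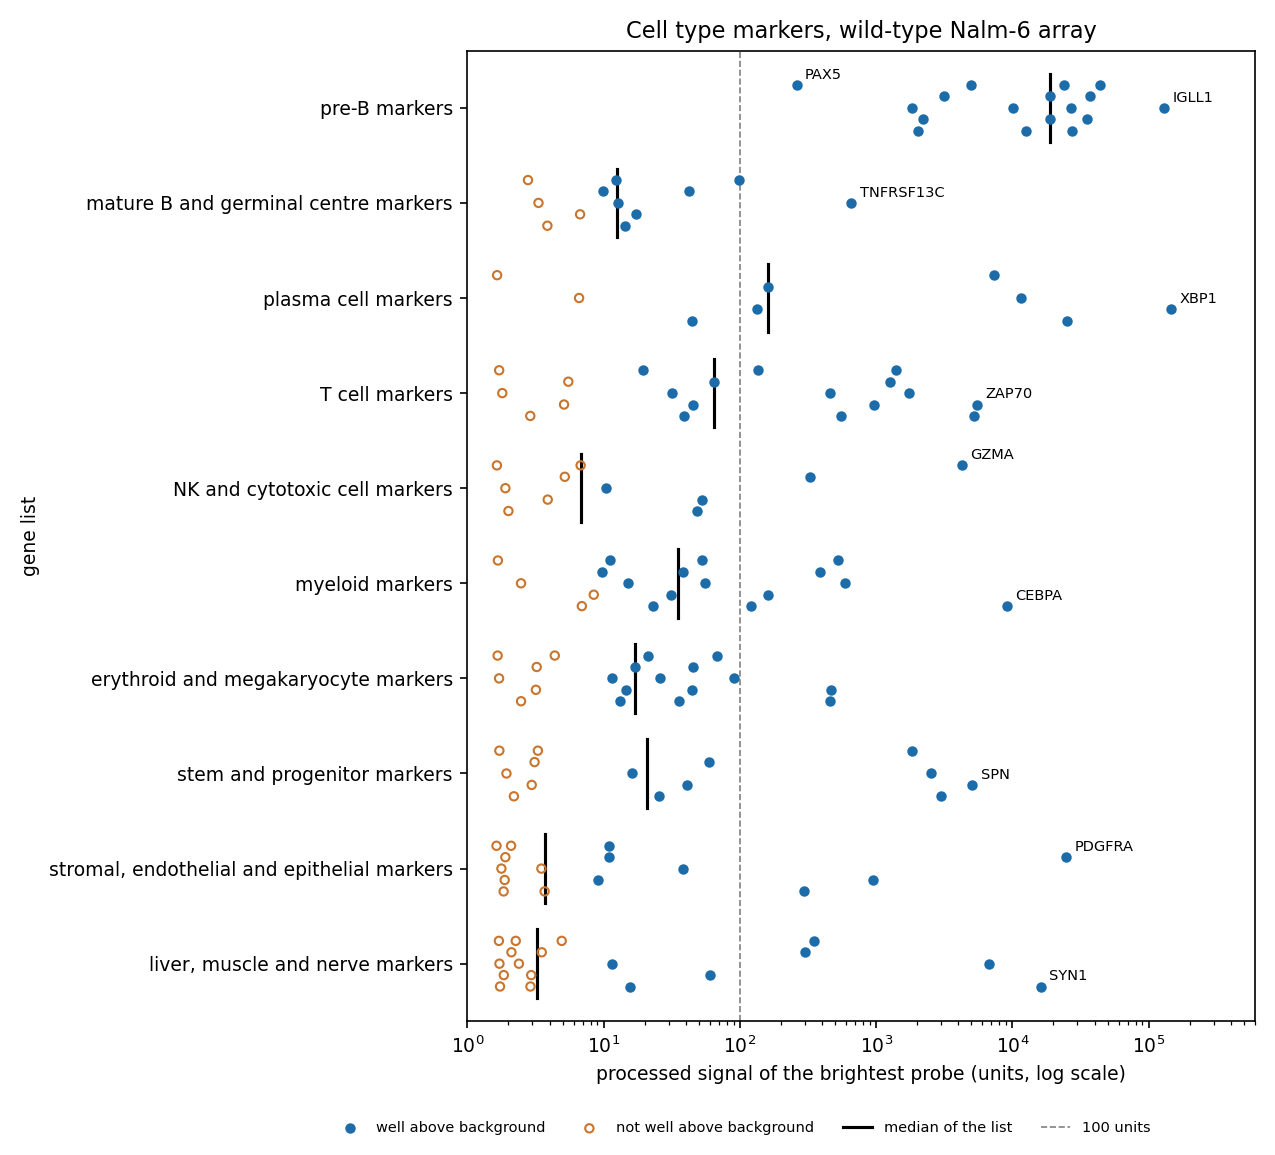
Processed signal in units (horizontal log axis) of the brightest probe of each gene in 10 lists of cell type markers (vertical axis) on the wild-type array. Each point is a gene, filled where well above background and open where not, with a black bar at the list median and a dashed line at 100 units; all 17 pre-B markers lie right of that line, and 1 of 12 mature B markers does.

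Signaling from the pre-B-cell receptor was measured for 24 of 25 genes, of which 23 were called and 22 reached 100 units. The kinase SYK, which binds the phosphorylated CD79 chains, had 11667 units. Its partners of the SRC family, BLK (5932 units), LYN (5154 units) and FYN (1775 units), the kinase BTK (8273 units), the adaptor BLNK (4925 units) and the phospholipase PLCG2 (10664 units) were all well above background. PIK3CD, the lymphocyte PI3 kinase, had 10102 units and the phosphatase INPP5D, which opposes it, 22570 units. The protein kinase C gene PRKCB was not well above background on the 2 probes used, the brighter at 1.98 units, while another, left out as an outlier, was called at 63.9 units. DAPP1, an adaptor that binds PI3 kinase products, had 104 units. IGHM, which encodes the heavy chain itself, had no named probe.

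All 15 genes of V(D)J recombination and end joining were called and reached 100 units. The recombinase genes RAG1 (35307 units, with a second probe at 346 units) and RAG2 (3160 units) and DNTT (27228 units) were joined by the Ku subunits XRCC6 (192830 units) and XRCC5 (23229 units), and by HMGB2 (135935 units), which helps the recombinase bend DNA. The nuclease gene DCLRE1C had 3152 units and the ligase LIG4 1211 units. The kinase ATM (190 units) and the polymerase POLL (104 units) had the lowest signals.

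B-lineage transcription factors were called in 31 of 31 cases, 28 of them at 100 units or more, with a median percentile of 88.5. LEF1 (86062 units, with a second probe at 1449 units), TCF3 (74026 units) and MYB (66241 units) were brightest. The related E protein TCF4 had 63805 units, SOX4 53901 units, the coactivator POU2AF1 33204 units, FOXO1, which drives RAG expression, 30044 units, and EBF1 18998 units. Of the Ikaros family IKZF2 had 17081, IKZF1 1306 and IKZF3 50.2 units. Further probes of IKZF2 had 4430 and 67.6 units, and a second probe of IKZF1 had 1004 units. SPI1, which encodes PU.1, had 201 units. Its relative SPIB had 5040 units, with a second probe at 124 units. IRF8 (80.8 units) and POU2F2 (65.2 units) were under 100 units while IRF4 and POU2F1 were not. Factors of other lineages were called in 19 of 33 cases and reached 100 units in 8, among them CEBPA, CEBPB (7630 units), POU5F1 (774 units), GATA3 (459 units), CEBPE, MYOD1 and WT1 (154 units). Uncalled factors included SOX10, PAX6, HNF4A, TLX1, GATA1 and FOXP3, at 3.34 to 7.42 units.

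HOX genes, which pattern the body axis and mark early blood progenitors, were called in 7 of 39 cases. HOXA3 stood at 145515 units on the only probe used, while a second, left out as an outlier, was not called at 2.26 units. HOXB4 had 273 units with its other probe not called at 3.93 units, and HOXB7, HOXD9, HOXB13, HOXB3 and HOXB9 had between 10.6 and 37.2 units. The neighbors of HOXA3 in the cluster, HOXA2 (2.05 units) and HOXA4 (1.89 units), were not well above background. Whether the bright HOXA3 probe measures HOXA3 mRNA was not tested.

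Receptors for cytokines and growth factors were called in 30 of 37 cases (81.1%) and reached 100 units in 22 (59.5%). These shares were near the 76% and 61% of all named genes. PDGFRA, IL4R (12368 units) and IL7R (10613 units), the receptor that sustains B cell precursors, were brightest, while CRLF2, the receptor chain that IL7R pairs with for TSLP, had 14.7 units. IL6ST, MET, CSF2RA, IL6R, IL2RA, IL13RA1 and EGFR were not well above background. Of 25 chemokine and lysophospholipid receptors 14 (56%) were called and 9 (36%) reached 100 units. The bone marrow homing receptor CXCR4 had 96324 units, S1PR4 40044 units and P2RY8 8019 units, whereas CCR6 (1.56 units), CCR9 (1.66 units) and GPR183 (3.83 units) were not called and CCR7, a receptor for lymph node entry, had 106 units.

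In the TNF receptor family 16 of 20 genes (80%) were called and 8 (40%) reached 100 units, against 76% and 61% of named genes. The TRAIL receptor TNFRSF10B had 4537, TNFRSF21 3978 and TNFRSF14 2934 units. The death receptor FAS had 436 units and CD40 9.92 units. TNFRSF9, NGFR, LTBR and EDAR were not called. Toll-like receptors and their adaptors were called in 14 of 18 cases (77.8%), near the share of all named genes. The brightest were the shared signaling genes IRAK1 (11760 units), TICAM1 (10371 units) and MYD88 (6283 units). The receptors TLR1 (701 units), TLR4 (591 units) and TLR9 (531 units) were called, and TLR2, TLR5, TLR7 and TLR8 were not. Further probes of TLR4 had 82.2 and 69.0 units. For antigen presentation 14 of 15 MHC class II genes and regulators were called, with HLA-DPB1 at 51789, HLA-DPA1 at 37702 and HLA-DRB1 at 30773 units, and the transactivator CIITA at 7899 units. HLA-DQA1 was not called, at 8.05 units on the brighter of 2 probes.

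**Figure D4:**
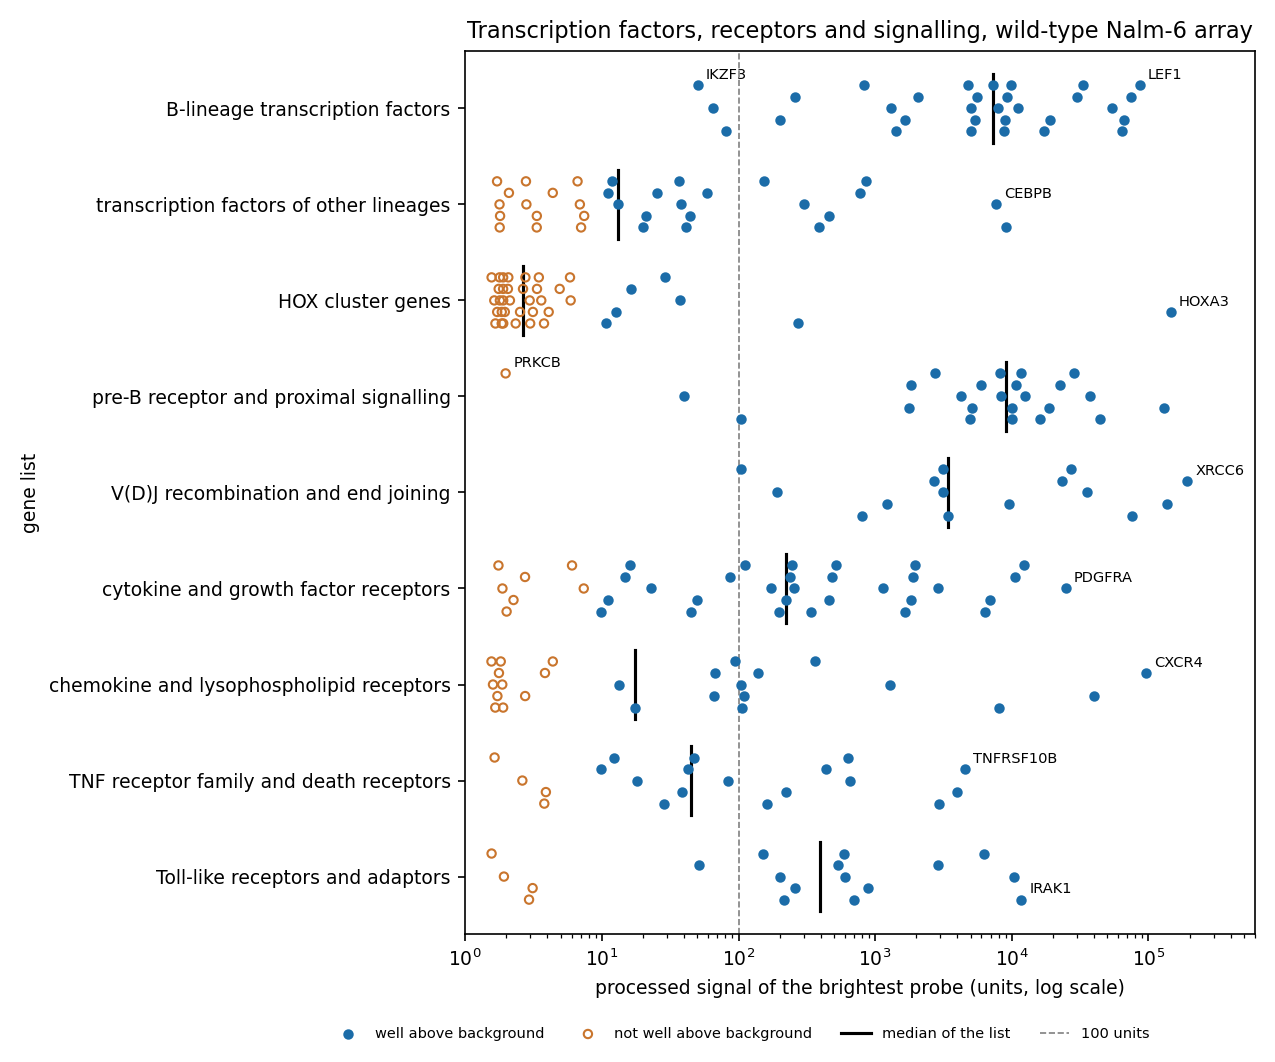
Processed signal in units (horizontal log axis) of the brightest probe of each gene in 9 lists of transcription factors, signaling genes and receptors (vertical axis) on the wild-type array. Points are genes, filled where well above background and open where not, with a black bar at the list median and a dashed line at 100 units; 31 of 31 B-lineage factors are filled, and in the HOX list HOXA3 at 145515 units stands apart from the rest.

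Stress genes were read in cells that had not been treated. HMOX1, which breaks down heme and is induced by oxidative stress, was well above background at 99.7 units, percentile 47.7, with an SD of 0.08 in log2 signal over 10 spots of its only probe. Its constitutive relative HMOX2 had 10559 units, and the biliverdin reductases that act after them, BLVRA and BLVRB, had 16661 and 3788 units. Of 16 genes of heme synthesis, breakdown and transport 16 were called and 14 reached 100 units, with UROD, an enzyme of the synthesis, at 12078 units. Of the enzymes that start heme synthesis, ALAS1 had 2591 units and the erythroid form ALAS2 had 21.3 units.

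Regulators of the oxidative stress response were called in 13 of 14 cases. NFE2L2, which encodes the activator Nrf2, had 5899 units, its inhibitor KEAP1 had 15355 units, and the repressors BACH1 and BACH2 had 1889 and 8903 units. Small MAF partners MAFG (11213 units) and MAFK (4121 units) were above 100 units and MAFF (51.6 units) was not, and NFE2 was not called. Second probes of BACH1 and MAFK were under 100 units, at 48.8 and 81.3 units. Among 21 measured Nrf2 and Bach1 targets 18 (85.7%) were called and 15 (71.4%) reached 100 units, against 76% and 61% of named genes. The sugar phosphate enzymes TKT (102955 units) and TALDO1 (50631 units) and the ferritin chains FTL (33677 units) and FTH1 (32883 units) were bright. GCLM and GCLC, which make the glutathione precursor, had 1439 and 1037 units, the quinone reductase NQO1 had 49.2 units, and SRXN1, AKR1B10 and AKR1C1 were not well above background.

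Enzymes of glutathione and peroxide metabolism were called in 33 of 39 cases (84.6%) and reached 100 units in 28 (71.8%), against 76% and 61% of named genes. The peroxiredoxin PRDX1 had 191983 units, the glutathione transferase GSTP1 95162 units and the superoxide dismutase SOD1 82185 units. Catalase, CAT, had 7818 units. GPX1 had 69128 and GPX4 18121 units, whereas GPX3 had 60.8 and GSTM3 10.1 units. GSTT1, SOD3, GPX6, GSTA1, GPX8 and MGST1 were not called. Metallothioneins, which bind zinc and other metals, and their regulator MTF1 were called in 10 of 12 cases with a median percentile of 94.3, led by MT1X (69415 units), MT1H (53895 units) and MT1A (51037 units). Their sequences are similar, so 1 mRNA may bind several of these probes. MT4 and MT1M were not called.

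Heat shock genes ranged from the brightest probes of the array to probes at the background. The chaperonins HSPD1 (210813 units) and HSPE1 (139154 units), HSPA8 (201486 units) and HSP90AA1 (128835 units) lay at percentiles of 99.4 or more. HSPA1A had 729 units, HSPA6 157 units and the cochaperone BAG3 38.0 units, and HSPB2, HSPB3, HSPB7 and HSPB8 were not called. In all 23 of 27 (85.2%) were, against 76% of named genes. The unfolded protein and ATF4 list was called in 19 of 19 cases with a median percentile of 91.3. ATF4 itself had 170202 units, its targets PHGDH, TRIB3, ASNS and PSAT1 had between 28122 and 32004 units, and DDIT3, which encodes the proapoptotic factor CHOP, had 396 units. The sensor ERN1, which splices XBP1 mRNA, was called at 8.87 units, the lowest value of that list.

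Among genes that respond to DNA damage, BBC3, which encodes the death protein PUMA, had probes at 121960, 5154 and 328 units. BAX, which permeabilizes mitochondria, had 20466 units and the cell cycle inhibitor CDKN1A 12259 units. Immediate early genes were called in 17 of 20 cases (85%) and reached 100 units in 11 (55%), against 76% and 61% of named genes. IER2 (55197 units), the phosphatase DUSP1 (12228 units) and KLF6 (5929 units) were brightest, but further probes of KLF6 had 1885, 36.6 and 25.6 units. FOS had 58.7 and EGR1 85.2 units, and NR4A2, EGR3 and NR4A3 were not called. Interferon-stimulated genes were called in 19 of 20 cases with a median percentile of 70.8. ISG15 had 15492 units, the factor IRF7 8297 and the RNA-binding IFIT1 2490 units, and RSAD2 was not called. A second probe of IRF7 had 190 units.

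**Figure D5:**
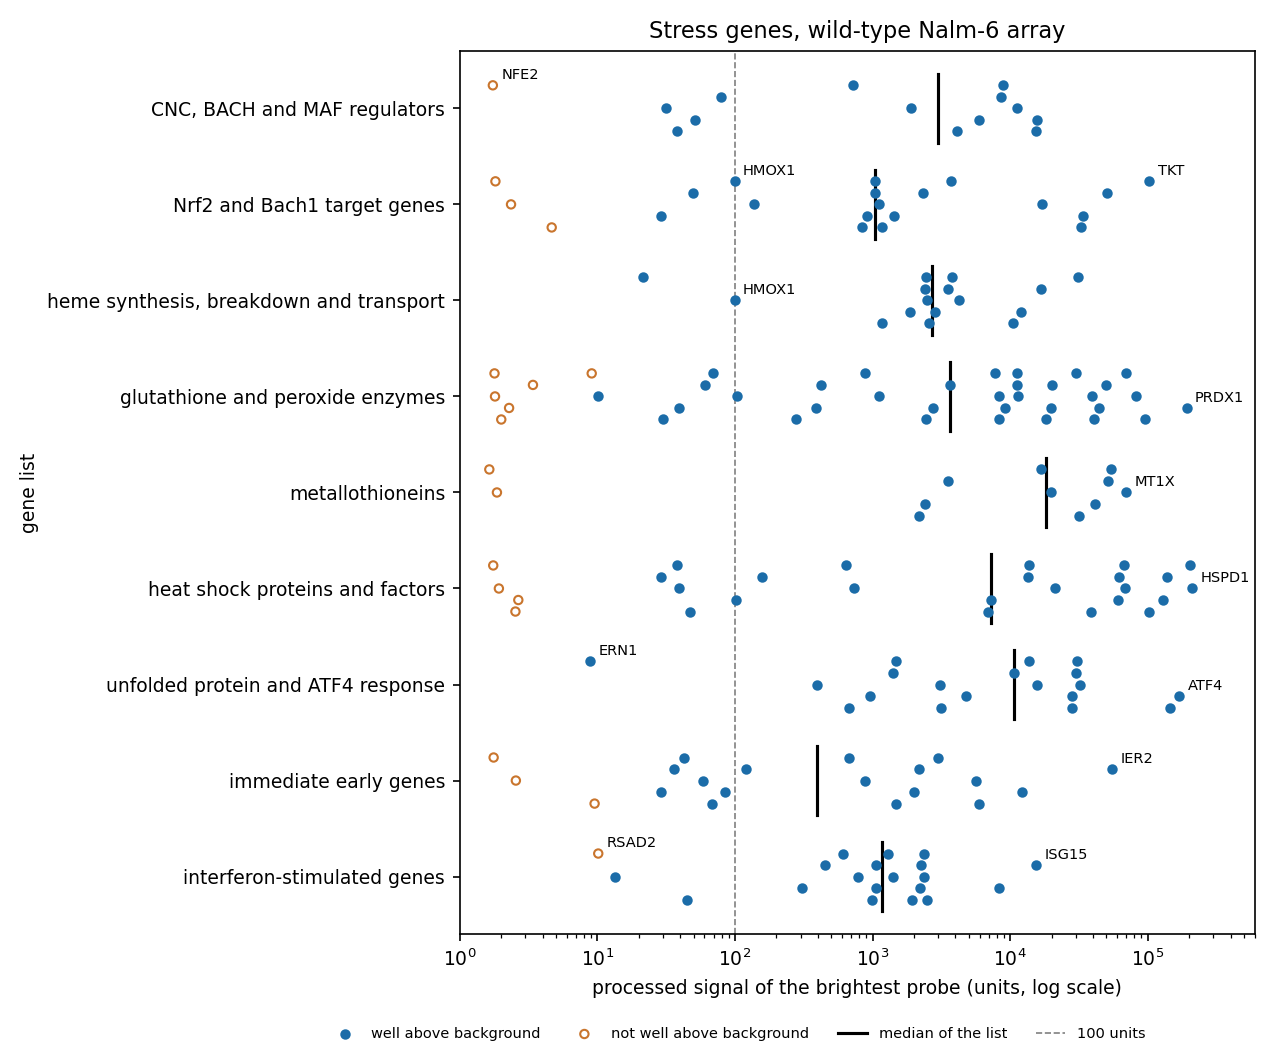
Processed signal in units (horizontal log axis) of the brightest probe of each gene in 9 lists of stress genes (vertical axis) on the wild-type array. Points are genes, filled where well above background and open where not, with a black bar at the list median and a dashed line at 100 units; HMOX1 lies at that line with 99.7 units, and the heme and unfolded protein lists hold filled points only.

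Genes of the INO80 chromatin remodeling complex, the subject of the study, were called in 16 of 16 cases, 15 of them at 100 units or more. The ATPase INO80 had 6900 units, ACTR5, which encodes Arp5, 1909 units and ACTR8, which encodes Arp8, 2149 units. The actin-related ACTL6A had 28487 units, and actin itself, ACTB, 203622 units. The helicases RUVBL1 and RUVBL2 had 3296 and 21751 units, and INO80D had 66.7 units.

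Replication and cell cycle genes were called in 28 of 28 cases with a median percentile of 94.5, the helicase subunits MCM7 (185553 units) and MCM3 (92598 units) and the thymidylate synthase TYMS (84112 units) being brightest. Among G1 regulators 17 of 18 were called. MYC had probes at 67279 and 251 units, CDK6 had 48754 units, and of the D-type cyclins CCND3 had 46018, CCND2 22.1 and CCND1 13.2 units. The inhibitor CDKN2B was not called, at 4.06 units, and CDKN2A had 685 units on 1 probe while its other probe was not called. All 16 BCL2 family genes were called, BBC3, the survival factor MCL1 (36195 units) and BID (23359 units) most brightly. BCL2 had 3889 units and BCL2L1 599 units.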

How the data were processed

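The authors deposited scanner output from Agilent Feature Extraction 10.5.1.1. Its processed signal is a linear intensity from which the software has removed background and spatial trend, with no scaling across arrays. In the deposited value table, the wild-type column (median 127) was close to this intensity times 0.847, with a largest difference of 0.055 units. That column is rounded to 1 decimal and is neither centered nor log-transformed. The rule behind the factor is not given in the sources used here. The 3 other columns were not used.

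Of 43376 spots other than controls, 431 marked as outliers were left out, which removed 348 of 41000 probes. Spots were averaged by probe, and a probe was called when more than 50% of its spots were marked well above background. Genes were named through probe accessions and the GRCh38.p14 gene table, and the upstream sequences are of that build; the array design cites hg18, and no probe position was used; 14647 probes (63.3% of them called) stayed unnamed. Named are the 20 genes with the highest signal, members of 35 lists with 668 genes, the 3 brightest of 7 families, and the 5 list genes with the widest range among probes. In long lists the brightest 3 called and up to 6 on the rarer side come first. Some genes and 1 list are not reported here. The members and lists were chosen with earlier results of these data known. With 1 array no test was made. The steps were tested on simulated data. Alternatives varied the call, the outlier spots, the signal and the rule for several probes. Tools were limma 3.58.1 in R 4.3.3 for normexp, and pandas 2.3.3, numpy 2.4.6, matplotlib 3.10.9 and scipy 1.17.1 in Python 3.11.15.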

Additional observations from a re-analysis of the deposited data

How the results depend on the processing

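No paired analysis was possible because the wild-type group holds 1 array and no comparison was made. The numbers of called probes (21252 to 34205 over the alternatives) and of called genes (10757 to 15572) stayed within 1.5 times the values reported, and the median SD of repeated spots was 0.06 without and 0.07 with outlier spots. Of the 20 brightest genes 16 were shared with outlier spots kept, 15 after normexp (offset 50, median signals), and 12 when the median of the probes of a gene was taken, which lowers every gene with an uneven set of probes. The authors' table is close to the same signal times 0.847 (largest difference 0.055 units), so its ranks are no check of these.

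The marker lists depended on the call. At 100 units or more the counts were 1 for mature B, 9 for T cell, 2 for NK, 6 for myeloid, 2 for erythroid and megakaryocyte, 4 for stem, 3 for stromal and 4 for liver, muscle and nerve markers. With the mark for a positive and significant signal, 8 NK and 12 liver, muscle and nerve markers were called. With a signal above the mean plus 3 SD of the negative controls (2.41 units), 8 and 11 were. When most probes of a gene had to be called, 5 mature B and 4 liver, muscle and nerve markers were. Among the 32 other lists and families, 9 counts fell by more than 1.5 times at 100 units, 6 rose with the positive and significant mark, 4 rose above the negative controls and 1 fell with most probes. All 17 pre-B markers were called under each of the 6 alternatives. Median percentiles of the 42 lists and families moved by more than 5 points in 9 with the median of probes, in 2 after normexp and in 1 with outlier spots kept. The widest shifts were from 79.7 to 61.8 for CNC, BACH and MAF regulators with the median of probes and from 33.7 to 44.0 for chemokine and lysophospholipid receptors with outlier spots kept. Naming by a gene name column was not run, as the scanner output used here has no such column. Signals under 10 units repeated poorly between spots, which limits calls near the background.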

Other observations

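Other genes among the 50 with the brightest probes, chosen after their values were seen, included the microtubule regulator STMN1 (227311 units on 1 probe and 17.4 on the other), the nucleolar protein NPM1 (226167 units), the histone gene H4C3 (220822 units), the prion protein gene PRNP (217590 units) and the cytokine MIF (215755 units). DRD4, a dopamine receptor of the brain, had 206006 units on 1 probe and 25.4 units on the other. Whether the bright probes of STMN1 and DRD4 measure these mRNAs was not tested.

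Nalm-6 is known to carry a rearranged DUX4 gene. Of 13 genes listed as high in leukemias with that rearrangement, 12 had a named probe, and all 12 were well above background against 76% of named genes. At 100 units or more there were 10 (83.3%), against 61% of named genes. The sulfotransferase CHST2 had 26768 units, the receptor PDGFRA 24747 units and DDIT4L 15209 units, whereas the lectin receptors CLEC12A and CLEC12B had 120 and 63.7 units and CD2, a T cell adhesion protein that is part of that list, 31.7 units. DUX4 had no named probe.

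By gene type, 76.5% of 16910 protein-coding genes, 59.2% of 390 long noncoding RNA genes and 71.5% of 323 transcribed pseudogenes were well above background, with median signals of 639, 22.8 and 118 units. The brightest 1000 probes held 52.3% of the summed signal, and the brightest probe of all, at 350480 units, has no gene name here.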
